A study of Mus musculus with 24 samples.

Results

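In this series, 6 treated mouse pancreatic tumour libraries stand behind count columns named A1_1, A1_2, A2_1, A2_2, A3_1 and A3_2, and they were compared with the other 12 treated libraries of the same series. The rule uses these column names alone and takes 6 of 18 treated libraries and of 24 libraries in all; the comparison was proposed with earlier results of these data known. They are GEM replicates 1, 2 and 3, IGEL replicate 1, and LIGEL replicates 1 and 2, and are called the A1-A3 libraries here. The columns of the other 12 treated libraries run from A11_1 to A24_1, and those of the 6 PBS libraries from A7_1 to A15_1, so no PBS library belongs to the A1-A3 set. The labels do not say what the column names mark, and no batch, date, cage or pairing is given.

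The series has 4 groups of 6 mouse samples from day 24: a PBS (buffered saline) control and treated groups labelled GEM, IGEL and LIGEL. The labels neither expand these abbreviations nor give a strain, an age, a dose or the tumour line. The title of the series names losartan priming followed by a nanocarrier, without saying which group received what. The sample titles carry the word muscle while the tissue label is pancreatic tumour; of 18 skeletal muscle genes only 8 passed the filter on low counts in the treated libraries, and Ttn, the giant sarcomere protein titin, reached 142 CPM in IGEL replicate 4 against 5.13 to 10.8 CPM in the other 17 treated libraries. The labels do not state that samples are separate animals, so a p-value here covers sample-to-sample spread alone, and that spread may be technical.

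Interferons are secreted alarm proteins that switch on antiviral genes in almost every cell. Type I interferons act through a transcription factor complex that binds an element in the promoters of target genes, and interferon gamma, made mainly by lymphocytes, also raises antigen presentation. Low oxygen stabilises hypoxia-inducible factors, which switch on glucose uptake, glycolysis and blood vessel growth factors. Pancreatic tumours are known for a dense stroma and poor perfusion, and tissue taken from the pancreas can hold acinar cells, which make digestive enzymes.

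Depth was alike in the sets. Total counts were 33.05 to 38.8 M (M for mega) in the A1-A3 libraries and 30.7 to 40.5 M in the other 12. Expression is given as CPM, counts scaled to a fixed library total after TMM adjustment, and differences as log2 values within group (A1-A3 minus other, ± SE of the edgeR fit). No pair of libraries agreed within sampling noise. Among the 153 pairs of treated libraries the correlation of log2 CPM was 0.982 for LIGEL replicates 1 and 2 and 0.980 for GEM replicates 2 and 3, which share the column numbers A3 and A2, and these ranked 2 and 3. Rank 1, at 0.984, was a pair across the sets, GEM replicate 1 and IGEL replicate 6. The pair that shares A1, GEM replicate 1 and IGEL replicate 1, stood at 0.978 and rank 14. As a check of the tissue, the epithelial keratin gene Krt8 was at 503 to 794 CPM in the A1-A3 set and 297 to 662 CPM in the rest. Other epithelial markers were low in some libraries of both sets: Krt7 ranged from 0.742 to 23.3 CPM and from 1.84 to 22.3 CPM, and Epcam from 2.14 to 40.5 CPM and from 5.01 to 47.5 CPM.

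Genes called lower in the A1-A3 libraries included many interferon-stimulated and cell cycle genes, and genes called higher included hypoxia response, glycolysis and heat shock genes. Of 18698 genes tested, 748 passed the edgeR quasi-likelihood test at an adjusted p under 0.05, which is 4.0% of genes. Of these, 309 were higher (1.65%) and 439 lower (2.35%), and the median log2 difference of all tested genes was -0.01. The list counts below are to be read against these shares. At a log2 size of 1 or more there were 55 higher and 112 lower genes. The sign was the same in GEM, IGEL and LIGEL for all 748, which were selected by a difference across these same libraries. In 13 genes (0.0695%) all 6 A1-A3 values lay above the 12 others, and in 53 genes (0.283%) all 6 lay below.

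That count depends on the model and on single libraries. With the mean acinar level as a covariate edgeR called 1 gene, without the 3 columns ending in _2 it called 1, with the replicate number as a block 2, and with all 24 libraries in the fit 18. Among treated libraries, replicate 1 is always in the A1-A3 set and replicates 4, 5 and 6 never are. Only replicates 2 and 3 hold both sets, so the block fit has little information on the difference. Without IGEL replicate 1, the only IGEL library in the set, edgeR called 2 genes, Pfkfb3 and the interferon-induced gene Ifi27, although 2825 genes had an unadjusted p under 0.05. With the whole IGEL group left out it called 271, of which 251 were among the 748. Without LIGEL replicate 1 it called 45, without LIGEL replicate 2 196, without GEM replicate 4 215, without GEM replicate 1 298, without LIGEL replicate 4 428, without LIGEL replicate 3 486 and without GEM replicate 3 496, while without GEM replicate 5 it called 2374, without GEM replicate 2 1720 and without IGEL replicate 6 1446. In each of these fits all 748 genes that were tested kept their sign, or 745 of 745 without the IGEL group. These fits share most or all libraries with the one that selected the genes, so kept signs are no separate support. Scaling to library totals without a composition factor turned the split from 41.3% higher to 62.8% higher, with 290 higher and 172 lower genes, and moved the median of all genes to 0.04. DESeq2 called 851 higher and 1847 lower genes (31.5% higher), voom with quality weights 1455 higher and 1432 lower, and the fit without the 3 libraries richest in acinar transcripts 102 higher and 229 lower (30.8% higher).

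**Figure D1:**
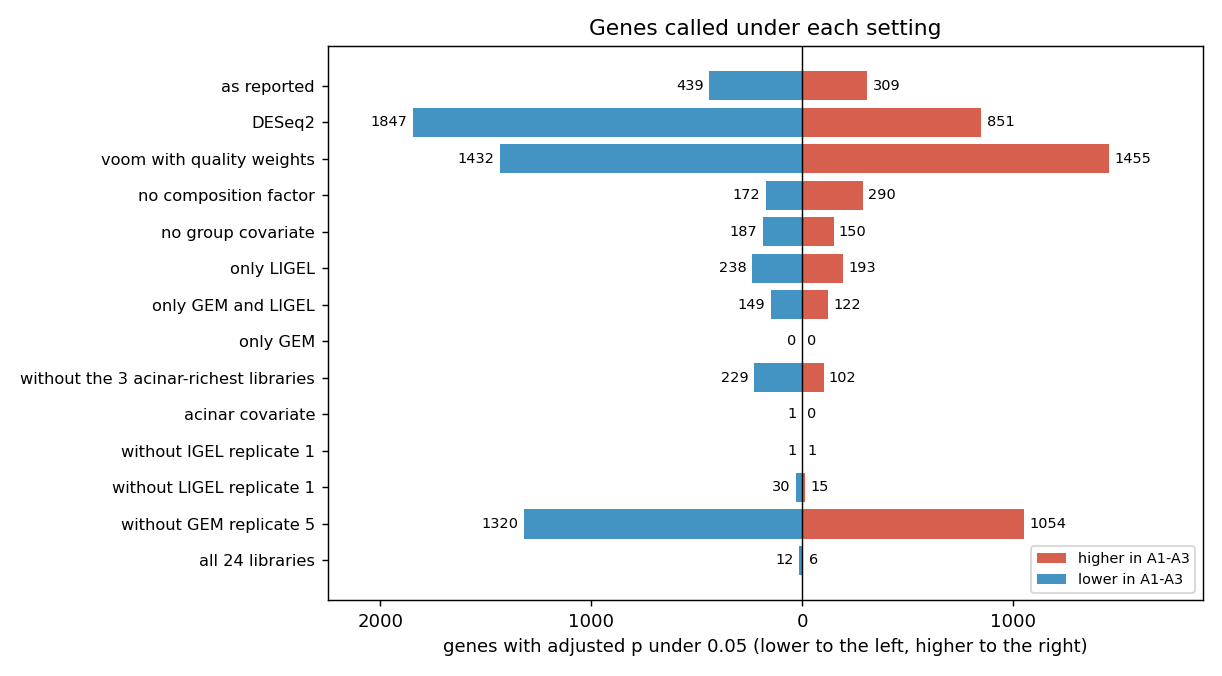
Number of genes with an adjusted p under 0.05 that were lower (bars to the left) or higher (bars to the right) in the A1-A3 libraries, for the reported fit and 13 other settings. The reported fit had 439 lower and 309 higher genes, and the bars all but vanish without IGEL replicate 1 and with the acinar covariate.

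Of the 34 type I interferon genes, 27 were called lower and 0 higher, where 2.35% of all genes were lower, and the median log2 difference was -1.14 against -0.01 over all genes. In 17 of them the 6 A1-A3 values lay wholly below the 12 others, where 0.283% of all genes did. Averaged over the list, log2 CPM was 4.47 to 5.12 in the A1-A3 libraries and 5.38 to 6.93 in the other 12, so the sets did not overlap. Promoters of 26 members could be matched to RefSeq (GRCm38.p6, 250 bases before to 50 after the start). Element counts here and for later lists cover matched members whether called or not, so they describe the lists and not the measured values. The interferon-stimulated response element, searched on both strands as GAAA, any 2 bases and GAAA, was in 14 of the 26 (53.8%) and in 3.99% of the 27025 genes with a promoter in that table. Among the 12349 tested genes with a promoter the share was 3.9%. The promoters of the members with the smallest p that hold the element are shown, to let the site be seen next to the start. The element is in capitals, and both genes lie on the minus strand. That of Eif2ak2 is chr17:78882523-78882822, with the element beginning 18 bases after the start, and that of Oas1a is chr5:120907476-120907775, with overlapping copies beginning 20 and 14 bases before it.
Eif2ak2: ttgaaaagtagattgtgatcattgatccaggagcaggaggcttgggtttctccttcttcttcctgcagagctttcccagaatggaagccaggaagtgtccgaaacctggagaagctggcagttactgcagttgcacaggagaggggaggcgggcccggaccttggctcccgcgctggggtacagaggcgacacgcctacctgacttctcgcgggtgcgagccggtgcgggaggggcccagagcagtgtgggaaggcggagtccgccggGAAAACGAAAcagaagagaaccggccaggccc
Oas1a: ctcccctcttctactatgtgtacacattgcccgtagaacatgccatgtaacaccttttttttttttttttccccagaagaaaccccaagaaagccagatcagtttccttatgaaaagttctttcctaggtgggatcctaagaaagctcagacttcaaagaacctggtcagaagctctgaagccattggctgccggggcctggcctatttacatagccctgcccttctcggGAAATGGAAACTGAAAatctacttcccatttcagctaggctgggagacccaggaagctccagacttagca

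Rtp4, an interferon-induced chaperone that also restrains type I interferon signalling (ENSMUSG00000033355, chromosome 16, 23520291 to 23614222, plus strand), led the list. It stood at 16.97, 17.9 and 17.4 CPM in GEM replicates 1 to 3, 9.64 CPM in IGEL replicate 1, and 13.02 and 12.7 CPM in LIGEL replicates 1 and 2, against a lowest value of 26.8, a median of 45.4 and a highest of 90.1 CPM in the other 12. Every A1-A3 library was below every other treated library. The log2 difference was -1.72 ± 0.30, 3.29-fold lower (adjusted p = 0.0113), and -1.14, -2.35 and -2.04 within GEM, IGEL and LIGEL. Oas1a, which makes the second messenger for RNase L, ranged from 14.3 to 29.3 CPM (median 25.5) against 31.3 to 104 CPM (median 61.4), again without overlap (-1.46 ± 0.28, adjusted p = 0.0141). Oas1a, Ifit1 and the histone genes have close paralogs, so the division of reads among the copies is uncertain.

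The transcription factors of the pathway were lower too. Irf7, the factor that amplifies interferon production (ENSMUSG00000025498, chromosome 7, 141262706 to 141266481), stood at 31.4 to 75.9 CPM (median 62.3) in the A1-A3 libraries and 83.2 to 410 CPM (median 160) in the others. No value overlapped, and IGEL replicate 1 was the lowest of all (-1.68 ± 0.39, 3.20-fold lower, adjusted p = 0.029). Irf9, the DNA-binding partner of STAT2, was at 34.7 to 49.8 CPM (median 44.0) against 56.1 to 116 CPM (median 78.0), without overlap (-0.85 ± 0.16, adjusted p = 0.0132). Stat2 was at 51.9 to 72.5 CPM against 87.1 to 247 CPM (-1.0 ± 0.21, adjusted p = 0.0212), without overlap.

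Effectors followed the same order. Isg15, the ubiquitin-like antiviral modifier, stood at 16.9 to 31.8 CPM (median 21.7) against 32.1 to 126 CPM (median 60.1), so the sets were separate by a narrow gap (-1.41 ± 0.34, adjusted p = 0.0322). Ifit1, which binds foreign RNA ends, was at 9.62 to 21.3 CPM against 23.4 to 83.4 CPM (-1.54 ± 0.33, adjusted p = 0.0212), and Bst2, the tether that holds budding virions, at 57.2 to 93.0 CPM against 94.7 to 290 CPM (-1.19 ± 0.24, adjusted p = 0.0174). Eif2ak2, the RNA-dependent kinase PKR, reached 94.3 CPM in the A1-A3 set and fell to 87.4 CPM in the rest, so its ranges overlapped slightly (-0.75 ± 0.14, adjusted p = 0.0132). Of the 7 members not called, Mx1 was at 8.63 to 29.0 CPM against 16.5 to 83.4 CPM (-1.13 ± 0.38, adjusted p = 0.0918) and Oas2 at 8.92 to 68.5 CPM against 31.0 to 216 CPM (-1.75 ± 0.51, adjusted p = 0.0629). Isg20 alone had a difference above 0 (0.10 ± 0.13, adjusted p = 0.674).

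The cytoplasmic RNA sensor genes Ifih1, Ddx58 and Dhx58, which are counted in the type I interferon list, were lower (-0.86 ± 0.18, -0.72 ± 0.15 and -1.32 ± 0.30, adjusted p = 0.0195, 0.0205 and 0.0267). In a separate list of other nucleic acid sensors, their adaptors and interferon receptors, 0 of 16 tested genes were called, where 4.0% of all genes were. The median was -0.11, and the lists were not tested against each other. Ifnar1 and Ifnar2, the receptor chains for type I interferon, had log2 differences of 0.07 and -0.12 (adjusted p = 0.416 and 0.465). At an adjusted p of 0.0565 the dNTP hydrolase Samhd1 came nearest to the threshold (-0.45).

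Interferon gamma genes were called lower in 13 of 24 members, with 0 called higher and a median of -1.14. The immunity-related GTPases, which attack vacuoles of intracellular parasites, led: Irgm1 (ENSMUSG00000046879, chromosome 11, 48861968 to 48871683) stood at 42.5 to 63.2 CPM (median 59.4) against 86.7 to 235 CPM (median 145). These ranges did not overlap, and the log2 difference was -1.27 ± 0.21 (2.40-fold lower, adjusted p = 0.0104). Tgtp2 was at 6.62 to 13.8 CPM against 16.8 to 57.8 CPM (-1.52 ± 0.24, adjusted p = 0.00804) and Irgm2 at 25 to 51.7 CPM against 63.4 to 181 CPM (-1.29 ± 0.23, adjusted p = 0.0121), both without overlap. Tgtp1 and Tgtp2 are close copies of each other, so how reads were divided between them is uncertain. The chemokine Cxcl10, which draws activated T cells, stood at 6.03 to 18.2 CPM against 19.1 to 71 CPM (-1.47 ± 0.34, adjusted p = 0.0279). Cxcl9, a chemokine of the same kind, ranged from 2.70 to 31.8 CPM against 5.56 to 90.1 CPM and was not called (-1.17 ± 0.66, adjusted p = 0.276). Cd274, the checkpoint ligand PD-L1, was at 23 to 35.1 CPM against 23.5 to 47.7 CPM (-0.02 ± 0.15, adjusted p = 0.958), and its sign changed with several settings.

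Class I antigen presentation genes were called lower in 7 of 18 members, with 0 called higher and a median of -0.44. The called genes belong to peptide supply and loading. Tapbp, the tapasin that loads peptide onto class I (ENSMUSG00000024308, chromosome 17, 33915899 to 33929288), was at 191 to 274 CPM (median 243) against 285 to 511 CPM (median 337), and Erap1, which trims peptides in the endoplasmic reticulum, at 58.3 to 79.1 CPM against 81.2 to 110 CPM. Neither overlapped (-0.49 ± 0.11, adjusted p = 0.0223, and -0.38 ± 0.08, adjusted p = 0.018). The peptide transporter gene Tap1 was lower (139 to 302 CPM against 253 to 475 CPM, -0.61 ± 0.15, adjusted p = 0.0328), as was the immunoproteasome gene Psmb10 (-0.76 ± 0.18, adjusted p = 0.0281). The class I heavy chains H2-K1 and H2-D1 differed by -0.26 and -0.20 and the light chain B2m by -0.17, not called (adjusted p = 0.193, 0.313 and 0.38). The other heavy chains of the list also had lower medians in the A1-A3 set. These were 320 against 409 CPM for H2-Q4, 67.6 against 117 CPM for H2-Q6 and 44.9 against 71.2 CPM for H2-Q7. H2-T22 was at 173 against 230 CPM and H2-T23 at 137 against 199 CPM.

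Cells that make or answer interferon gave these values beside it. Of 22 T cell markers 1 was called, Ctla4, and of 14 cytotoxic and NK cell markers, 16 B and plasma cell markers and 22 macrophage and monocyte markers 0 were called. Over all genes 4.0% were called, so these counts are near that share and do not show that cell content was alike. The mean log2 CPM of the T cell list was 1.34 to 2.95 in the A1-A3 libraries and 1.40 to 3.25 in the others, and that of macrophages 5.17 to 6.51 against 5.61 to 6.81. In bulk tissue, fewer cells of a type and less RNA per cell cannot be told apart. The part of these cell types in the interferon values was not tested.

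**Figure D2:**
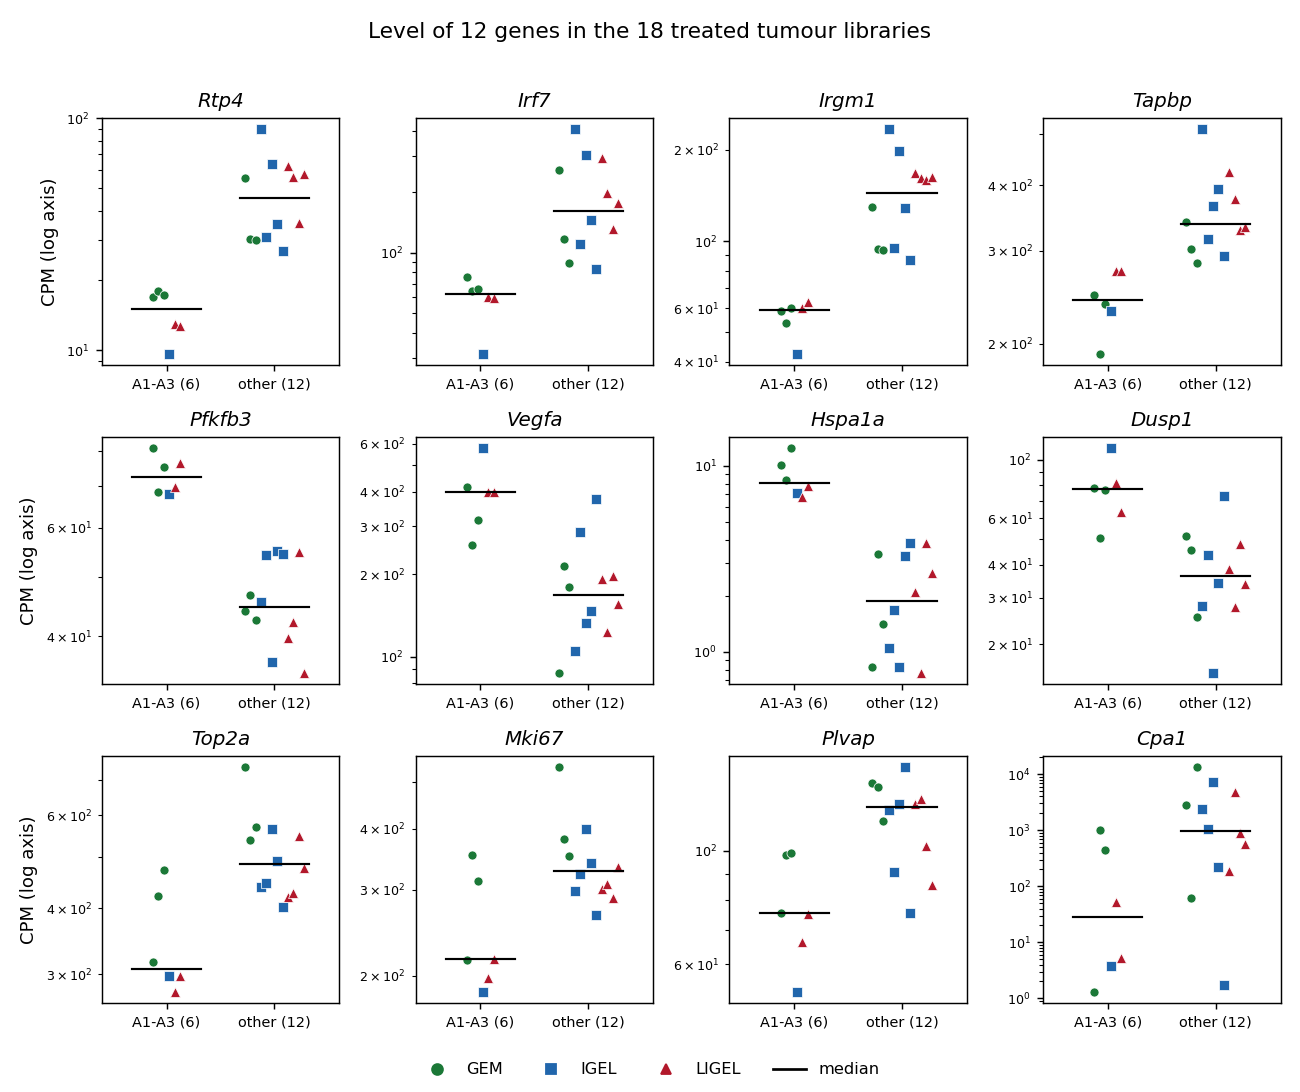
CPM on a log axis of 12 genes in the 6 A1-A3 libraries and the 12 other treated libraries, with 1 point per library (circles GEM, squares IGEL, triangles LIGEL) and a line at the median of each set. Rtp4, Irf7, Irgm1 and Tapbp lie below, and Pfkfb3 and Hspa1a above, all other treated libraries, while Vegfa, Dusp1, Top2a, Mki67, Plvap and Cpa1 overlap.

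Hypoxia response genes were called higher in 19 of 25 members and lower in 0, and their median was 0.88. Over all genes 1.65% were called higher. Averaged over its members, log2 CPM was 5.80 to 6.59 in the A1-A3 libraries and 4.97 to 6.22 in the others, with IGEL replicate 6 the highest of the 12. The hypoxia response element core ACGTG, read on both strands, was in the promoters of 13 of 18 matched members (72.2%) and in 21.8% of all 27025. Among the 12349 tested genes with a promoter the share was 27.7%. The promoters of the members with the smallest p that hold the core are shown, with it in capitals. Pfkfb3 has it 60 bases before the start (chr2:11553880-11554179, minus strand) and Egln1 68 bases before (chr8:124949205-124949504, minus strand).
Pfkfb3: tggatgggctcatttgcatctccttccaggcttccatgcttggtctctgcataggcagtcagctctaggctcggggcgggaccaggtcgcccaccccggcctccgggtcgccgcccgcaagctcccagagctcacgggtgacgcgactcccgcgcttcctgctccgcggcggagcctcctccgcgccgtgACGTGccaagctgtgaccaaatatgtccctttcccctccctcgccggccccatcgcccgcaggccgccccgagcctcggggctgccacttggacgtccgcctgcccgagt
Egln1: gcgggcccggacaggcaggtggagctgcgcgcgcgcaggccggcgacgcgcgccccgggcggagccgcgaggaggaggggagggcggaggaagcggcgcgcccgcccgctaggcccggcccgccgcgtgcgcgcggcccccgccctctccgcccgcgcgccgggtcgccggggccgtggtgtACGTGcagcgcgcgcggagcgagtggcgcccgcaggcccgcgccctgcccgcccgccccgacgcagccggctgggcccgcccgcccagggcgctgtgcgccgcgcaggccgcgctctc

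Pfkfb3, the enzyme that makes the main activator of glycolytic flux (ENSMUSG00000026773, chromosome 2, 11471433 to 11554077), was the member without overlap. It stood at 80.8, 68.6 and 75.2 CPM in GEM replicates 1 to 3, 68.1 CPM in IGEL replicate 1, and 69.8 and 76.3 CPM in LIGEL replicates 1 and 2. The other 12 libraries held 34.9 to 54.9 CPM with a median of 44.7. All 6 values were above all 12, and the log2 difference was 0.70 ± 0.10 (1.62-fold, adjusted p = 0.00787). Pfkfb3 stayed called in all 18 fits that left out 1 library, with 0.66 to 0.75, but not with the acinar covariate (0.58, adjusted p = 0.167), with the replicate block (0.75, adjusted p = 0.286) or without the _2 columns (0.60, adjusted p = 0.144). The block fit has little information on the difference, since few replicate numbers hold both sets. Egln1, the oxygen-sensing hydroxylase that marks hypoxia-inducible factors for destruction, was at 64.5 to 100.1 CPM (median 85.3) against 37.5 to 77.5 CPM (median 50.7), with some overlap (0.77 ± 0.13, adjusted p = 0.0104). Its inducible relative Egln3 was at 92.6 to 200 CPM against 29.1 to 122 CPM (1.30 ± 0.26, adjusted p = 0.0172).

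Vegfa, the main growth factor for blood vessels (ENSMUSG00000023951, chromosome 17, 46016993 to 46032369), ranged from 256 to 579 CPM (median 400) in the A1-A3 libraries and from 87.2 to 376 CPM (median 168) in the others. The ranges overlapped, and the difference was 1.22 ± 0.25 (2.33-fold, adjusted p = 0.0183). The glucose transporter gene Slc2a1 stood at 225 to 509 CPM (median 349) against 81.1 to 340 CPM (median 178; 1.13 ± 0.26, adjusted p = 0.0279). Car9, the carbonic anhydrase that exports acid, was at 24.7 to 37.5 CPM against 8.28 to 30.9 CPM (0.98 ± 0.24, adjusted p = 0.0335), and Ndrg1, a stress-induced growth regulator, at 179 to 599.97 CPM against 55.9 to 348 CPM (1.5 ± 0.33, adjusted p = 0.026). The mitophagy receptor Bnip3 rose with them (32 to 74.9 CPM against 9.84 to 54.1 CPM, 1.2 ± 0.30, adjusted p = 0.0377), as did the collagen hydroxylase P4ha1 (0.68 ± 0.18, adjusted p = 0.0426). Stc2 was the 1 member with a difference below 0, at 0.702 to 5.86 CPM against 0.438 to 20.8 CPM (-1.25 ± 0.74, adjusted p = 0.297).

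Glycolysis enzymes were called higher in 6 of 18 members, all 18 had a difference above 0, and the median was 0.57. Hk2, the inducible hexokinase that starts the pathway, stood at 186 to 368 CPM (median 296) against 98.8 to 273 CPM (median 153; 0.93 ± 0.19, adjusted p = 0.0184). The ranges overlapped, as they did for Pgk1, an ATP-producing step (746 to 1342 CPM against 433 to 1037 CPM, 0.71 ± 0.18, adjusted p = 0.0405). Pfkp, the platelet-type phosphofructokinase, differed by 0.72 ± 0.17 (adjusted p = 0.0267). Ldha, which turns pyruvate into lactate, differed by 0.44 ± 0.13 and was not called (adjusted p = 0.0613). Of 22 genes of oxidative phosphorylation, the respiratory chain, 0 were called and the median was -0.08.

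Heat shock genes, chaperones that refold damaged proteins, were called higher in 6 of 14 members with a median of 0.26. Hspa1a, the stress-inducible Hsp70 (ENSMUSG00000091971, chromosome 17, 34969190 to 34972156), was at 6.79 to 12.4 CPM (median 8.09) in the A1-A3 libraries and 0.768 to 3.85 CPM (median 1.88) in the others. All 6 values were above all 12, and the log2 difference was 2.0 ± 0.38 (4.01-fold, adjusted p = 0.0132). Its near-identical neighbour Hspa1b was at 23.6 to 57.6 CPM against 5.21 to 33.7 CPM (1.68 ± 0.37, adjusted p = 0.025), and reads shared by the pair may have been split between them. Hsph1, a partner of Hsp70, stood at 112 to 205 CPM against 59.9 to 128 CPM (0.84 ± 0.16, adjusted p = 0.0132). Constitutive and mitochondrial chaperones such as Hspa8 (0.15), Hsp90ab1 (0.18) and Hspd1 (0.15) were not called. The heat shock element, searched on both strands as GAA, any 2 bases, TTC, any 2 bases and GAA and added after the values were seen, was in 3 of 11 matched promoters (27.3%) and in 0.662% of all. Among tested genes with a promoter the share was 0.575%. The promoter of Hsph1 (chr5:149636287-149636586, minus strand) holds the element on the opposite strand, 36 bases after the start, shown in capitals.
Hsph1: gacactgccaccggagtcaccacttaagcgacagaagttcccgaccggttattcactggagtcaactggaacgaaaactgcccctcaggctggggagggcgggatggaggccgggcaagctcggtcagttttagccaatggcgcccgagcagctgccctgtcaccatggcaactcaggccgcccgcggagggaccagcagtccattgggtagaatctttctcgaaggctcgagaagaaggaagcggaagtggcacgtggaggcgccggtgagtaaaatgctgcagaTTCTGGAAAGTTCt

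Immediate early genes, which answer signals within minutes, were called higher in 3 of 25 members with a median of 0.39. These were the nuclear receptor gene Nr4a1 (20.9 to 29.5 CPM against 13.1 to 23.2 CPM, 0.53 ± 0.11, adjusted p = 0.018), the kinase phosphatase gene Dusp1 (50.6 to 111 CPM against 15.6 to 72.8 CPM, 1.01 ± 0.25, adjusted p = 0.0359) and Ier5 (0.31 ± 0.09, adjusted p = 0.0492). Fos was at 28.7 to 39.4 CPM against 10.5 to 35.8 CPM (0.75 ± 0.22, adjusted p = 0.0599). Egr1 and Jun were not called (0.52 and 0.26, adjusted p = 0.227 and 0.407).

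The unfolded protein response was called higher in 3 of 25 members with a median of 0.13. The called members were Trib3 (16.6 to 39.5 CPM against 8.83 to 24.0 CPM, 0.80 ± 0.20, adjusted p = 0.0328), Ddit3, which encodes CHOP (0.61 ± 0.15, adjusted p = 0.0328), and the chaperone gene Hspa5 (0.37 ± 0.09, adjusted p = 0.0377). A list of amino acid response genes and tRNA synthetases, drawn up after the values were seen, held 13 of 28 called higher and 0 lower with a median of 0.37, so its count supports nothing by itself. In it the cystine importer gene Slc7a11 stood at 13.6 to 39.8 CPM against 6.13 to 19.1 CPM (1.18 ± 0.22, adjusted p = 0.0132) and the cysteinyl-tRNA synthetase gene Cars at 89.6 to 168 CPM against 65.9 to 103 CPM (0.64 ± 0.11, adjusted p = 0.0104). Asns, a classic target of the response, was not called (0.37 ± 0.28, adjusted p = 0.416).

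Cell cycle genes were called lower in 24 of 31 members, with 0 higher, a median of -0.54 and a difference below 0 in all 31. The medians within GEM, IGEL and LIGEL were -0.51, -0.56 and -0.53. Top2a, the topoisomerase that untangles replicated DNA (ENSMUSG00000020914, chromosome 11, 98992943 to 99024189), was at 316, 421 and 473 CPM in GEM replicates 1 to 3, 297 CPM in IGEL replicate 1, and 277 and 298 CPM in LIGEL replicates 1 and 2. The other 12 held 403 to 742 CPM with a median of 485. GEM replicates 2 and 3 reached into the range of the others, and the rest of the set lay below it (-0.66 ± 0.10, adjusted p = 0.00804). The TTTGAA core of the cell cycle homology region, also searched on both strands and added after the values were seen, was in 13 of 26 matched promoters (50%) and in 20.2% of all. Among tested genes with a promoter the share was 15.2%. The promoter of Top2a (chr11:99024140-99024439, minus strand) holds the core 179 and 23 bases before the start, shown in capitals.
Top2a: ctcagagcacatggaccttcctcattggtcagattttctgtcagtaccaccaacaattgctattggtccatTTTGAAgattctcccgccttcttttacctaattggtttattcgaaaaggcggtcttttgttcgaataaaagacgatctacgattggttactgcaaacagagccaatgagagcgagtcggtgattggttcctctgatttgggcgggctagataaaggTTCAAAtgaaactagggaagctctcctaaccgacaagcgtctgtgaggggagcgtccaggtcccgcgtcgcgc

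Mki67, the marker of cycling cells, stood at 185 to 353 CPM (median 216) against 267 to 536 CPM (median 328; -0.60 ± 0.12, adjusted p = 0.0141). Nusap1, which bundles spindle microtubules, had the smallest p of the list, at 27.6 to 43.6 CPM against 40.1 to 71.1 CPM (-0.73 ± 0.11, adjusted p = 0.00787). The mitotic kinase genes Cdk1 (-0.55 ± 0.09, adjusted p = 0.00804) and Plk1 (-0.74 ± 0.13, adjusted p = 0.0121) were lower, and so was Rrm2, the ribonucleotide reductase subunit that supplies DNA precursors (-0.81 ± 0.17, adjusted p = 0.018). Of the replication helicase genes Mcm5 and Mcm6 were called (-0.42 and -0.18), while Mcm2 and Mcm3 were not (-0.16 and -0.17, adjusted p = 0.182 and 0.186). Ccnd1, which encodes cyclin D1 and belongs to no list, was chosen once its values were known: it averaged 144 ± 14.2 CPM (SD, n = 6) against 194 ± 17.4 CPM (SD, n = 12) with no overlap (-0.44 ± 0.07, adjusted p = 0.00787). Replication-dependent histone genes, whose messages lack a poly(A) tail, had 3 of 14 members called higher (Hist2h4, Hist1h1c and Hist1h4i) and a median of 0.64. In the p53 response list 2 of 22 were called higher (Plk3 and Plk2) and 1 lower (Ei24), where 1.65% and 2.35% of all genes were. Cdkn1a, the cell cycle brake p21, was not called (0.38 ± 0.21, adjusted p = 0.26).

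**Figure D3:**
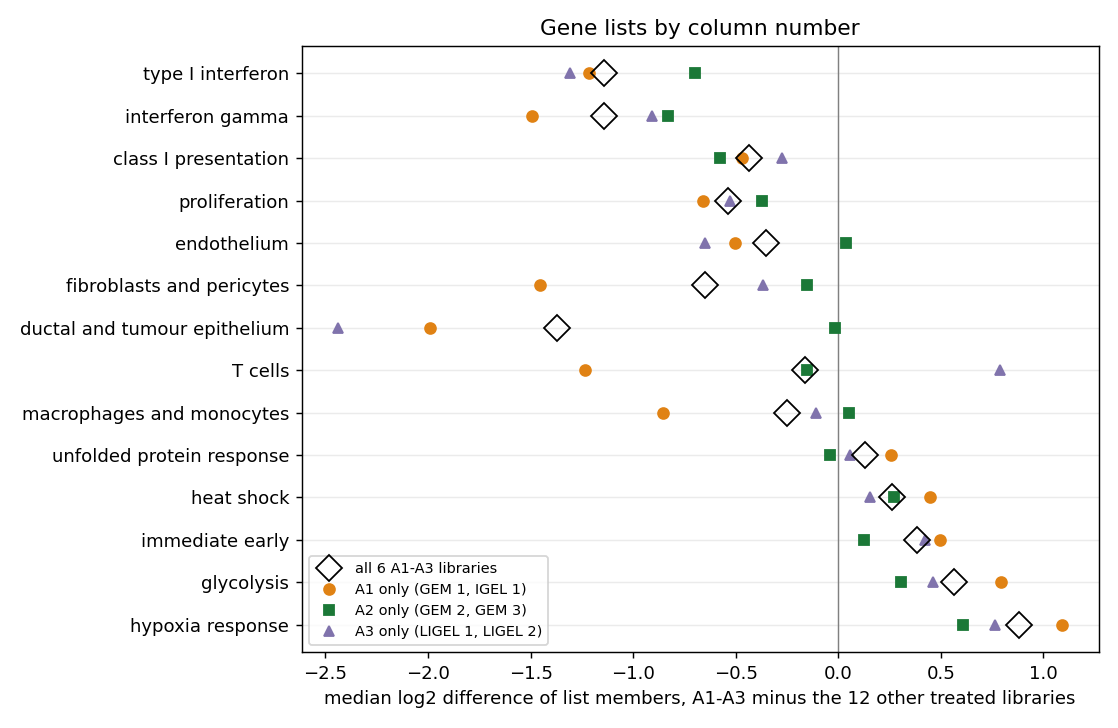
Median log2 difference of the members of 14 gene lists between A1-A3 libraries and the 12 other treated libraries, for all 6 libraries (open diamonds) and for the columns numbered A1, A2 or A3 alone. The interferon, class I and proliferation medians lie below 0 and the hypoxia, glycolysis and heat shock medians above 0 for each column number, while the T cell, endothelial, macrophage and unfolded protein medians change side.

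Each column number was also set against the 12 others alone, a comparison added after the values were seen that shares those 12 libraries. The type I interferon median was -1.21 for A1 (GEM replicate 1 and IGEL replicate 1), -0.70 for A2 (GEM replicates 2 and 3) and -1.31 for A3 (LIGEL replicates 1 and 2). The hypoxia median was 1.09, 0.61 and 0.77, and the proliferation median -0.66, -0.37 and -0.53. Each of these 2-library fits called 0 genes in edgeR, while 5109, 731 and 2203 genes had an unadjusted p below 0.05. A test of whether the A1-A3 difference varied between the treated groups also called 0 genes (0% of those tested; smallest adjusted p = 0.865), with 1055 at an unadjusted p under 0.05. In the model with a difference for each group, 0 genes were called within GEM and 0 within LIGEL. Fitted on its own, LIGEL gave 431 called genes and GEM 0.

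Acinar transcripts varied widely between libraries of both sets. All 28 acinar genes had a difference below 0 with a median of -5.07, and 0 were called in edgeR. Cpa1, the digestive enzyme carboxypeptidase A1, stood at 1.30 CPM in GEM replicate 1, 3.72 CPM in IGEL replicate 1, 5.22 CPM in LIGEL replicate 2, 51.3 CPM in LIGEL replicate 1, 440.45 CPM in GEM replicate 3 and 1003 CPM in GEM replicate 2. The other 12 ran from 1.75 CPM in IGEL replicate 6 to 13428 CPM in GEM replicate 6, with a median of 970.4 CPM. The ranges overlapped, but that median was close to the highest A1-A3 value (-5.12 ± 1.95, adjusted p = 0.124). The mean log2 CPM of the acinar list was -0.82 to 7.22 (median 1.71) in the A1-A3 libraries and -1.41 to 10.8 (median 7.13) in the others. Ctrc, Prss1, Amy2a5 and Ptf1a were at 0 CPM in at least 1 A1-A3 library, and Ctrc, Prss1, Prss3, Sycn, Rbpjl and Ptf1a in at least 1 of the others.

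With the mean acinar level as a covariate, edgeR called only Ifi27 (-1.02, adjusted p = 0.0327), and 1546 genes had an unadjusted p under 0.05. All 748 genes kept their sign in this fit of the same 18 libraries that selected them. The type I interferon median was then -0.87, the interferon gamma median -0.71, the hypoxia median 0.54, the glycolysis median 0.25 and the proliferation median -0.39. Without the 3 libraries richest in acinar transcripts 331 genes were called, and 23 of 34 type I interferon, 7 of 25 hypoxia and 18 of 31 proliferation genes were among them. IGEL replicate 6, with the lowest acinar level of all 18 (-1.41), had a type I interferon level of 5.45. That was above all 6 A1-A3 libraries, while its hypoxia level of 6.22 was inside their range. Also inside were its levels for interferon gamma (4.08 in 3.11 to 4.33), class I (7.30 in 6.78 to 7.47) and proliferation (6.30 in 5.93 to 6.55). GEM replicate 2, with the highest acinar level of the A1-A3 set (7.22), had a type I interferon level of 4.99 and a hypoxia level of 5.80. How far acinar content accounts for the differences between the sets was not tested.

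**Figure D4:**
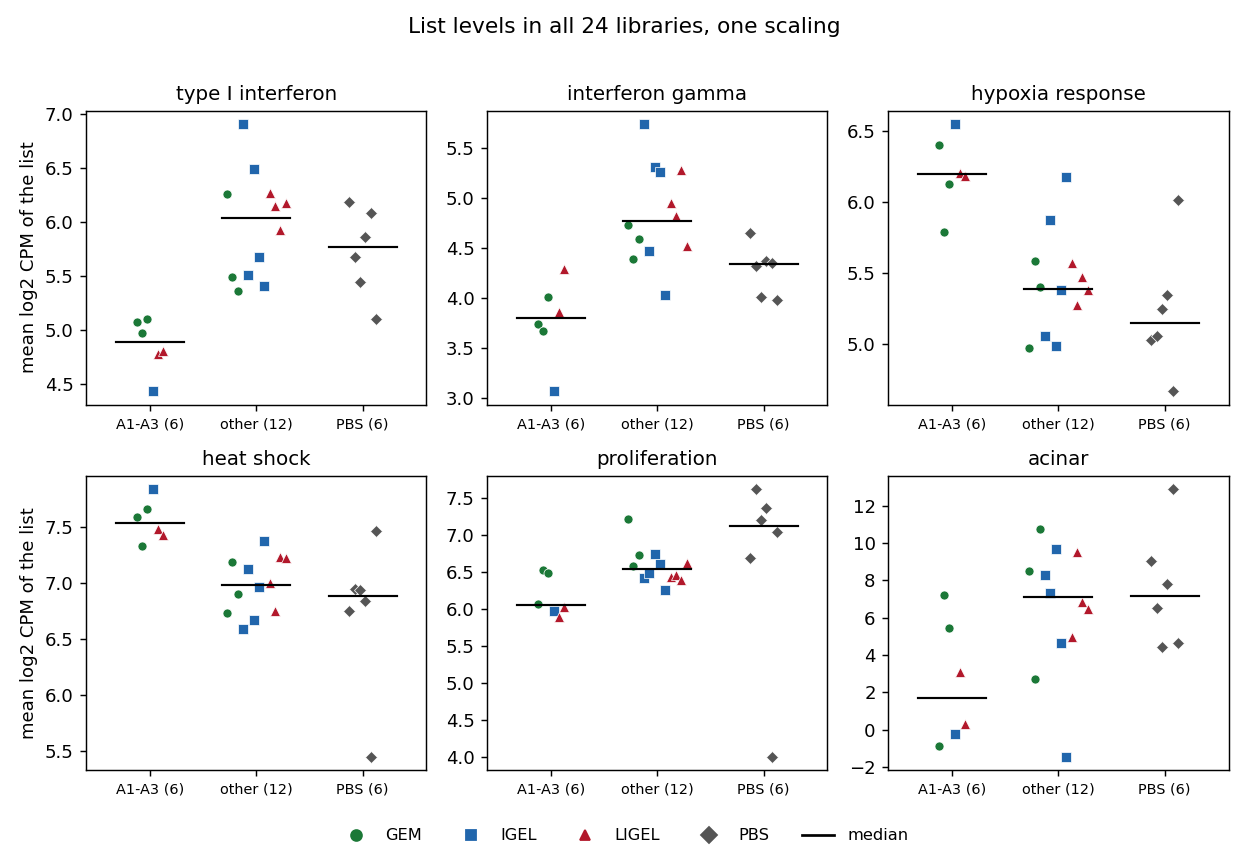
Mean log2 CPM of the members of 6 gene lists in each of the 24 libraries under 1 common scaling, for the A1-A3 set, the 12 other treated libraries and the 6 PBS libraries, with a line at each median. The type I interferon level of PBS (5.10 to 6.18) lies at or above the highest A1-A3 value of 5.10, and the acinar level spreads widely in every set.

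PBS libraries, scaled together with the others, give a reference for level only, since none of them belongs to the A1-A3 set. The type I interferon level was 4.43 to 5.10 in the A1-A3 libraries, 5.35 to 6.91 in the other treated libraries and 5.10 to 6.18 in PBS, with medians of 4.89, 6.03 and 5.77. The hypoxia level was 5.79 to 6.55, 4.97 to 6.17 and 4.66 to 6.01, and the median of 6.19 in the A1-A3 set lay above the highest value of either other set. The proliferation level was 5.89 to 6.53, 6.25 to 7.22 and 4.01 to 7.62, with medians of 6.05, 6.54 and 7.12. The PBS lows of 4.01 here and 4.66 for hypoxia were both PBS replicate 5, with 44.7% of its counts in acinar genes. The other PBS libraries had proliferation levels of 6.70 to 7.62, above the highest A1-A3 value of 6.53.

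Blood vessel genes were called lower in 2 of 19 members, where 2.35% of all genes were, with a median of -0.35. Plvap, which forms the diaphragms of capillary pores (ENSMUSG00000034845, chromosome 8, 71497765 to 71511752), was at 53 to 99.2 CPM (median 75.5) against 75.5 to 146 CPM (median 122), with overlap (-0.66 ± 0.14, adjusted p = 0.0186). Tie1, a receptor of vessel remodelling, was at 15.8 to 35.9 CPM against 24.7 to 45.0 CPM (-0.59 ± 0.15, adjusted p = 0.0361). The junction genes Pecam1 and Cdh5 were not called (-0.21 and -0.02, adjusted p = 0.265 and 0.946), and Pecam1 changed sign in some settings. Of 7 tested lymphatic genes, a list added after the values were seen, 3 were called lower: Prox1, the master regulator of lymphatic identity (0.119 to 7.13 CPM against 1.49 to 12.6 CPM, -2.65 ± 0.65, adjusted p = 0.0359), the receptor gene Flt4 (-1.26 ± 0.33, adjusted p = 0.0426) and Reln (-2.30 ± 0.62, adjusted p = 0.0497).

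In the ductal and tumour epithelium list, 1 of 19 was called, Sox9, a transcription factor of duct and progenitor cells, at 44.2 to 94.7 CPM against 25 to 60.8 CPM (1.0 ± 0.19, adjusted p = 0.0141). The list's median was -1.37, with Epcam at 2.14 to 40.5 CPM against 5.01 to 47.5 CPM and Cdh1 at 4.26 to 119 CPM against 9.87 to 116 CPM, neither called (adjusted p = 0.127 and 0.147). Krt8, Krt18 and Krt19 had differences of 0.36, 0.37 and 0.60 and were not called. Of 20 fibroblast and pericyte genes and 24 collagen and matrix genes 0 were called, at medians of -0.65 and -0.29, and Col1a1, the main fibrillar collagen, differed by -0.79 ± 0.27 (adjusted p = 0.0872). Without IGEL replicate 1 the fibroblast median was -0.38.

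Single genes of the immune cell lists were called. Il1b, the inflammatory cytokine, stood at 15.9 to 39.3 CPM against 6.66 to 21.8 CPM (1.05 ± 0.22, adjusted p = 0.0174), and Clec4d, a receptor for fungal sugars, differed by 1.05 ± 0.27 (adjusted p = 0.0397). They were the 2 called of 19 neutrophil genes, where 1.65% of all genes were called higher. The neutrophil surface gene Ly6g was at 0.260 to 1.64 CPM against 0.408 to 2.50 CPM (-0.81 ± 0.41, adjusted p = 0.219). Ccl22, a chemokine of mature dendritic cells that draws regulatory T cells, was at 5.17 to 10.1 CPM against 1.55 to 6.19 CPM (1.28 ± 0.25, adjusted p = 0.0141). Ctla4, an inhibitory T cell receptor, stood at 0.967 to 6.37 CPM against 0.474 to 4.08 CPM (1.34 ± 0.32, adjusted p = 0.029). Nos2, the inducible nitric oxide synthase, was at 12.5 to 36.1 CPM against 3.52 to 29.1 CPM (1.51 ± 0.32, adjusted p = 0.0207).

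Among called genes with at least 1 CPM on average in the higher set, those with the largest differences had varied roles. Higher were Sprr1b, a cornified envelope protein (0.365 to 2.94 CPM against 0 to 0.903 CPM, 2.98 ± 0.69, adjusted p = 0.0267), and Slc1a7, a glutamate transporter (3.13 to 14.2 CPM against 0.476 to 6.09 CPM, 2.05 ± 0.46, adjusted p = 0.0248). Ptgs2, the inducible cyclooxygenase, was at 28.5 to 78.7 CPM against 7.64 to 60.8 CPM (1.39 ± 0.36, adjusted p = 0.0412). Krt79, Gbx1, Hist2h3c2 and Hsd17b2 were also among the 12 higher genes with the largest differences, at log2 values of 1.44 to 1.62. Lower were Cldn10, a tight junction protein (0 to 0.663 CPM against 0.319 to 7.20 CPM, -3.75 ± 0.91, adjusted p = 0.0333), and Cilp, a matrix protein (1.55 to 66.7 CPM against 13.3 to 196 CPM, -2.80 ± 0.73, adjusted p = 0.0441). Art4, Olfml2a, P2rx1, Kcnn3, Gbp10, Fbln5, Dnah6 and Pdk4 followed, at -2.73 to -2.0, with overlapping ranges in each case.

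Ifi27, named after its values were seen, had the smallest adjusted p of all genes. This interferon-induced mitochondrial protein averaged 136 ± 30.9 CPM (SD, n = 6) against 258 ± 44.9 CPM (SD, n = 12), with overlap (-0.96 ± 0.12, adjusted p = 0.00556). In the other lists, counting called genes alone, cholesterol synthesis had 1 of 20 higher (Dhcr7), mesothelium 1 of 7 higher (Slpi), squamous keratins 1 of 7 lower (Sfn), dendritic cells 1 of 16 higher (Ccl22) and 1 lower (Bst2, also an interferon gene), and the circadian and glucocorticoid lists, both added after the values were seen, 3 of 18 higher and 2 of 13 higher with 1 lower. Islet, Reg family, skeletal muscle, nuclear RNA, adipocyte, liver, gut, nerve, red cell, mitochondrial, ribosomal protein, class II and mesenchymal transition lists had 0 called members. Over all genes 4.0% were called.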

How the data were processed

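Bulk RNA sequencing of 24 mouse samples was deposited by the authors as 1 table of raw read counts per gene, not normalized, with gene length as another column. HISAT2, Subread's featureCounts and the mm10 build appear in the submitters' processing notes. Versions, strandedness and the annotation release are not given in the sources used here, so reads of overlapping or antisense genes cannot be separated. Library totals were 27.1 to 40.5 M counts (M for mega).

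For the 18 treated libraries edgeR 4.0.16 (under R 4.3.3) was used: filterByExpr over the 3 groups (minimum count 10, minimum total 15) kept 18698 of 54532 genes and removed 0.0763% of counts, followed by TMM factors and robust quasi-likelihood F tests of the A1-A3 term beside a group term. A call needed a p below 0.05 after Benjamini-Hochberg adjustment over all tested genes. Log2 CPM used a prior count of 2. The fitting code was tested on simulated data. The members and the gene lists (41 lists of 770 genes, 768 in the table, and 4 lists added later) were chosen with earlier results of these data known. Named genes were up to 12 higher and 12 lower with the largest called log2 difference of at least 1, at least 1 CPM in the higher set and the same sign in 3 groups, leaving out predicted genes and pseudogenes, the 3 smallest p of each list with a called member, and 24 fixed genes. Others were named after their values were seen.

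Alternatives were DESeq2 1.42.0, limma 3.58.1 voom with quality weights, RLE or no composition factors, other filters, a replicate block, an acinar covariate, no group term, a fold minimum, subsets of groups or libraries, and each library left out. The comparisons of single column numbers were added after the values were seen. Some genes that the naming rule selects are not reported here.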

Additional observations from a re-analysis of the deposited data

Results flagged for a closer look

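In each named gene and gene list, the 6 A1-A3 libraries were searched for 1 value standing far from the other 5, measured as its gap to the nearest value over the whole range (above 0.625 for 6 samples). This held for 14 of 99 genes and 44 lists. The cutoff is set to pass about 1 in 20 where values are normally distributed and items independent. CPM can be skewed and genes are shared with lists, so the 14 are not read as an excess. GEM replicate 2 and IGEL replicate 1 each gave 6 of the 14.

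In IGEL replicate 1, Irf7, the amplifier of interferon production, was lowest at 31.4 CPM (next 59.5). The histone genes Hist2h4 and Hist1h4i were highest there at 1.64 and 16.5 CPM, as was the replication-dependent histone list at a mean log2 CPM of 1.52. The amino acid response list was also highest there at 6.999, and the dendritic cell list lowest at 2.38.

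In GEM replicate 2, the stomach peptide gene Tff2 stood at 42.4 CPM (next 11.7), Clec4e, a receptor for mycobacterial lipid, at 9.46 CPM and Xist, the X inactivation RNA, at 901 CPM (next 405). Aldoc, a glycolysis enzyme, was lowest there at 19.3 CPM. Its neutrophil list reached 2.70 and its red blood cell list 2.85 in mean log2 CPM. Krt79 was highest in LIGEL replicate 1 at 3.48 CPM, and the membrane glycoprotein gene Gpm6a in GEM replicate 3 at 0.995 CPM.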

How the results depend on the processing

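Against 748 called genes (309 higher, 439 lower), DESeq2 called 2698 (851 higher, 1847 lower) and voom 2887 (1455, 1432). No composition factor gave 462 (290, 172), no expression filter 461 (177, 284), no group term 337 (150, 187), only LIGEL 431 (193, 238), only GEM and LIGEL 271 (122, 149), leaving out the 3 acinar-richest libraries 331 (102, 229) and all 24 libraries 18 (6, 12). The acinar covariate and leaving out the _2 columns each gave 1 (0, 1). GEM alone, a minimum fold of 0.5 log2 and the A1, A2 or A3 columns alone each gave 0 (0, 0). Leaving out 1 library gave 2 to 2374 called, 1 to 1054 higher and 1 to 1320 lower. The causes were not tested, and the subsets also hold fewer samples. All 748 genes kept their sign wherever tested, except 1 gene with the A2 columns alone. The genes were selected in these same libraries, so kept signs are no separate support.

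The replicate block gave 2 called genes (1 higher, Hspa1a, and 1 lower, Ifi27). No pairing by replicate number was seen. The median correlation of deviations was 0.00443 over 18 same-number pairs (-0.371 to 0.492) and 0.0152 over 90 others (-0.64 to 0.67). With this spread a modest pairing could have been missed.

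Some genes without a call changed sign. For Cd274 the value was 0.13 with voom, 0.027 without a composition factor, 0.16 in LIGEL alone, 0.049 in GEM and LIGEL, 0.16 with the A3 columns alone, and -0.067 to 0.079 when 1 library was left out. For Pecam1 it was 0.083 with the block, 0.040 in GEM alone and 0.16 with A2 alone. For Ttn it was -1.09 without a group term, -0.99 with A1 alone and -0.10 to 0.42 when 1 library was left out. For Xist it was 0.25 with the block, 0.082 with the acinar covariate and 0.30 with A2 alone. For mt-Co1 it was 0.056 without a composition factor, 0.066 with the block, 0.014 in GEM alone, 0.027 without the _2 columns, 0.079 without the 3 acinar-richest libraries, 0.062 with the acinar covariate, 0.072 with A2 alone and -0.082 to 0.075 when 1 library was left out. Cdkn1a was at -0.083 with A2 alone. The cause was not tested. Depth was alike between sets, and genes near 1 CPM or below have the least precise values. In the comparison set, IGEL replicate 3 had Xist at 0.0879 CPM and 0 counts of Y-linked genes, where the A1-A3 libraries held 114 to 901 CPM of Xist. IGEL replicate 4 had 17 counts of Y-linked genes.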
